A study of Mus musculus with 6 samples.

Results

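Insulin-like growth factor (IGF) signaling was examined in chronic stroke infarcts through the transcripts of 10 genes, which are 2 ligands (*Igf1* and *Igf2*), 2 receptors (*Igf1r* and *Igf2r*) and 6 binding proteins (*Igfbp2* to *Igfbp7*). The genes were selected by name, with no threshold on their values, from the 46078 genes counted in each library. RNA-Seq had been performed on 3 infarcts and on 3 equivalent regions of the contralateral cortex from wild type male C57BL/6J mice, at 7 weeks after permanent occlusion of the distal middle cerebral artery followed by hypoxia. The labels give an age of 3 months for every sample and name no drug treatment. Every mouse had had a stroke, so the contralateral cortex is the uninjured side of an injured brain and not that of an unoperated animal. The infarct was cut out by eye. The labels do not say whether an infarct and a contralateral cortex with the same number came from 1 mouse, nor which samples came from separate mice. The *p* values therefore measure only the spread between these samples, which may be in part technical. Counts on genes ranged from 11943570 to 19933962 per library, and no library stood apart from its region, with pairwise Pearson correlations of log2 CPM across genes of at least 0.957 within a region and at most 0.784 between regions. Of the infarcts, infarct 3 was nearest to the contralateral libraries, with correlations of 0.7735 to 0.7845, and infarct 1 was farthest, with 0.6655 to 0.6833.

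IGF1 and IGF2 are small secreted hormones that bind the receptor tyrosine kinase IGF1R, which acts on growth and survival through the PI3K-AKT and MAPK pathways. IGF2R, the cation-independent mannose 6-phosphate receptor, sends IGF2 to the lysosome for degradation and sorts newly made lysosomal enzymes. The binding proteins hold IGFs in tissue fluid and at the cell surface or matrix, limit or prolong their action, and release them when proteases cut them. In the brain, *Igf2* is known from the leptomeninges, vessels and choroid plexus, and *Igf1* from some neurons in the healthy cortex and from phagocytes after injury.

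Of the 10 genes, 8 were higher in infarcts and none was called lower. Calls required more than a 2-fold change and an adjusted *p* under 0.05 in the quasi-likelihood test of edgeR, with adjustment by Benjamini-Hochberg over 15554 tested genes. By the same rule, 25.7% of all tested genes were called higher, 20.9% lower and 46.6% in either direction. All 10 genes passed the filter on low counts. The median log2 fold change was 2.64 over the 10 genes and 0.03 over all tested genes. The regions did not overlap for 9 of the 10 genes, which was the case for 72.3% of all tested genes. In 8 of these 9 the infarcts were higher, as in 37.6% of all genes, and in 1 they were lower, as in 34.7%. Without the fold threshold, the same 8 genes passed as higher, as did 34.2% of all genes. The exceptions to the rise were *Igf1r*, whose 3 infarct values lay under all contralateral values without reaching a 2-fold change, and *Igfbp2*, whose regions overlapped. Expression is given as CPM, which are counts relative to the library total, scaled between libraries by edgeR's trimmed mean of M values (TMM), and means carry the SD of 3 libraries.

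**Figure D1:**
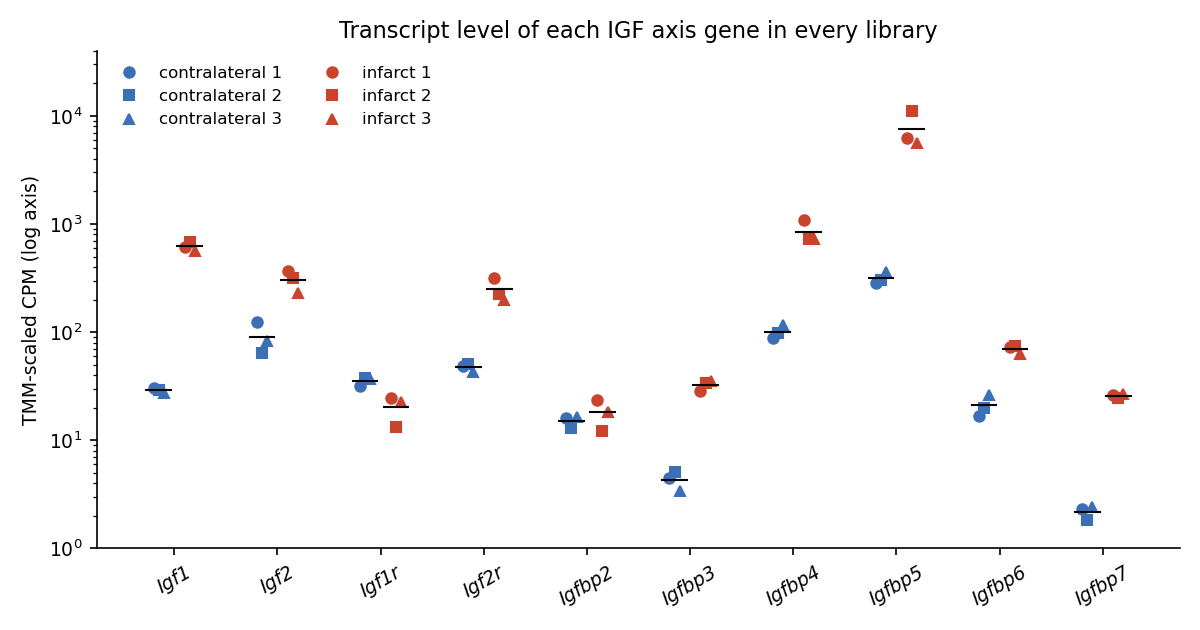
TMM-scaled CPM, on a log axis, of each of the 10 genes in the 3 contralateral cortices (blue) and the 3 infarcts (red), with the replicate number given by the marker shape and the mean of a region by a horizontal line. For 8 genes all red points lie above all blue points, for *Igf1r* they lie below, and for *Igfbp2* they overlap.

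**Figure D2:**
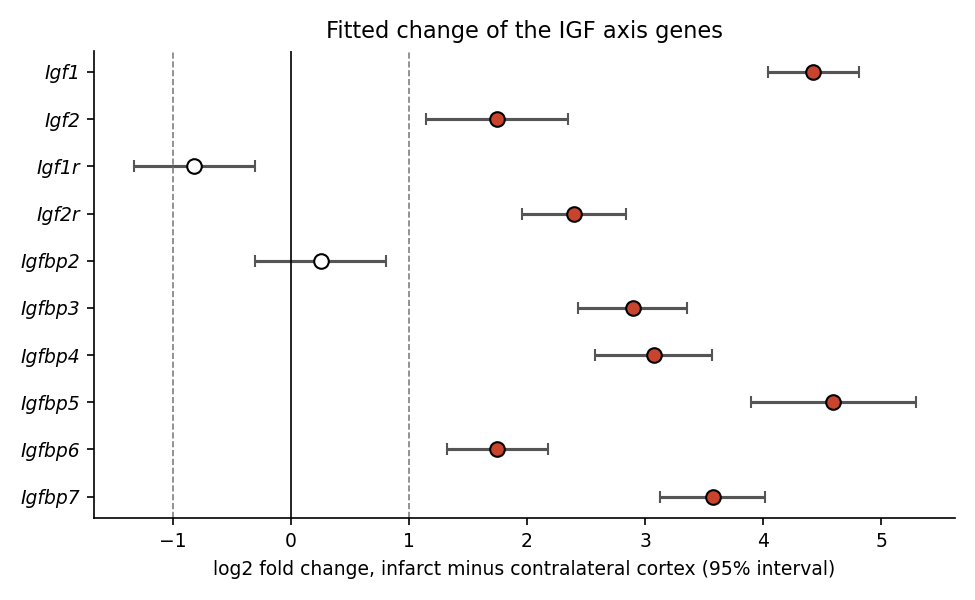
Log2 fold change of each gene, infarct minus contralateral cortex, with its 95% interval from the edgeR fit. Filled points mark genes called higher, and dashed lines mark a 2-fold change in either direction. The interval of *Igfbp2* spans 0 and that of *Igf1r* lies below 0 but spans the lower dashed line.

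Promoter windows were taken from RefSeq on GRCm38.p6 for all 10 genes, from 250 bases before to 50 after a gene's start. Windows are shown for *Igfbp5* and *Igfbp4*, the genes with the highest levels per length, and for the 2 receptors, whose infarct values lay on opposite sides of the contralateral ones. They are written 5′ to 3′ on the gene's strand, with capitals on the motifs that were searched on both strands.
Igfbp5 chr1:72874816-72875115: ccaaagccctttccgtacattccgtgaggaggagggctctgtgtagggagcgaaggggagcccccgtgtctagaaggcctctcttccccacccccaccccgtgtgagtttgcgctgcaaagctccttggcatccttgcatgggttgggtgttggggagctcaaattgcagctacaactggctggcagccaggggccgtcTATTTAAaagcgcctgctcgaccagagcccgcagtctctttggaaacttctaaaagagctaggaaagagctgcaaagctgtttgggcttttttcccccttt
Igfbp4 chr11:99040994-99041293: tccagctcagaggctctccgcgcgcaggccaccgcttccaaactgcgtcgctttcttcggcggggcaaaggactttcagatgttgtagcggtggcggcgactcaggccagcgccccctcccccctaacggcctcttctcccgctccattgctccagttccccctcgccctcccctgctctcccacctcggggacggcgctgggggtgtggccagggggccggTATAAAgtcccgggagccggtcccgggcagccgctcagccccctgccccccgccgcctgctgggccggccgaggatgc
Igf2r chr17:12769657-12769956: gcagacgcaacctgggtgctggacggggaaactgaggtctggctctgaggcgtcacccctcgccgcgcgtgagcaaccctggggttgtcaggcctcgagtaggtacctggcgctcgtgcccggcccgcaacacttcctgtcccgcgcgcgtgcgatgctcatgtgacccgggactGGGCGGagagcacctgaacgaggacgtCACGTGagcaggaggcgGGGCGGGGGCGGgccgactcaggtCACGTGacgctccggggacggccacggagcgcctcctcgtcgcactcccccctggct
Igf1r chr7:67952007-67952306: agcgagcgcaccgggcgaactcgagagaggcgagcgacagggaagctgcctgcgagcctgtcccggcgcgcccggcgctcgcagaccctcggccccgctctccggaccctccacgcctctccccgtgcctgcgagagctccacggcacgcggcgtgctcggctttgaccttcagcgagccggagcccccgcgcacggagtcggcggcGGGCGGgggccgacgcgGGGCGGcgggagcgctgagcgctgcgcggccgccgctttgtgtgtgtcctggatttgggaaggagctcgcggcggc
The motifs were chosen with the sequences in view, as TATAAA, its variant TATTTAA, the GC box GGGCGG and the palindrome CACGTG. They were found in 13.6%, 4.51%, 35.7% and 7.15% of the 32851 windows in the table. The *Igfbp4* window held TATAAA, beginning 28 bases before the start, and the *Igfbp5* window held TATTTAA, beginning 51 bases before it. Neither of these binding protein windows held the GC box. It did occur in windows of *Igfbp2*, *Igfbp7* and *Igf2*, which are not shown, so it did not divide the receptors from the binding proteins. Both receptor windows held the GC box, 3 times in *Igf2r* and 2 times in *Igf1r*, and neither held a TATA motif. In *Igf2r*, CACGTG was also found 2 times, beginning 48 and 7 bases before the start, and no motif overlapped another in these 4 windows. The *Igf1r* window is placed on a RefSeq start that lies 570 bases from the gene's start in GENCODE M21. The difference was 42 bases for *Igf2r*, 19 for *Igfbp5* and 0 for *Igfbp4*. A match describes letters in a window and does not show binding.

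*Igf1* (ENSMUSG00000020053, GRCm38 chromosome 10, 87858265 to 87937042, plus strand) encodes the ligand that most strongly activates IGF1R. It had 617, 686 and 558 CPM in infarcts 1, 2 and 3, against 30.6, 28.9 and 27.1 CPM in contralateral samples 1, 2 and 3. Each infarct thus exceeded each contralateral cortex, and the values were close within both regions. The mean was 620 ± 64.2 CPM in infarcts, against 28.9 ± 1.74 CPM in contralateral tissue, a log2 fold change of 4.42 (adjusted *p* = 1.64e-07 by edgeR, standard error, SE, 0.17). *Igf1* ranked between 123 and 166 among all genes by CPM in the infarcts, and between 5506 and 5858 in the contralateral cortices. Its 8 annotated transcripts are summed in these counts.

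*Igf2* (ENSMUSG00000048583, chromosome 7, 142650766 to 142666816, minus strand), an imprinted gene expressed from the paternal allele in most tissues, had 367, 319 and 231 CPM in infarcts 1, 2 and 3. In contralateral cortices 1, 2 and 3 it had 125, 64.9 and 83.1 CPM. The lowest infarct lay above the highest contralateral cortex, although the contralateral values of *Igf2* varied more, in proportion to their mean, than those of the other 9 genes. The log2 fold change was 1.75 (adjusted *p* = 3.76e-04 by edgeR, SE 0.27). Without contralateral cortex 1 it was 2.04, and without contralateral cortex 2 it was 1.55. *Gm49394*, on the same strand, shares 62.8% of the exon bases of *Igf2* in GENCODE M21 and is not among the 46078 genes counted in each library. *Igf2os*, transcribed in the opposite direction, overlaps 1.71% of its exon bases, with 41 counts over the infarcts and 23 over the contralateral cortices.

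The balance of the ligands was compared per length, as counts divided by the union exon length in kilobases. *Igf1* stood at 0.141, 0.258 and 0.189 of *Igf2* in contralateral cortices 1, 2 and 3, and at 0.971, 1.24 and 1.40 of *Igf2* in infarcts 1, 2 and 3. The mean ratio was 0.196 ± 0.0585 in contralateral cortices and 1.20 ± 0.215 in infarcts, with no overlap. A 2-sided exact permutation test gave *p* = 0.1, the smallest value that 3 against 3 libraries allow, and an adjusted *p* of 0.12 over the 12 per-length values tested in this way. In infarcts the 2 ligands overlapped in their levels per length, at 62.6 ± 6.48 CPM per kilobase for *Igf1* and 53.4 ± 12.1 for *Igf2*. This overlap held for the union exon length only. With the longest annotated transcript as length, or with no length scaling, every infarct value of *Igf1* lay above every infarct value of *Igf2*, and the mean ratio in infarcts was 1.39 and 2.08. In contralateral cortices they did not overlap under any of these scalings, at 2.92 ± 0.176 for *Igf1* and 15.9 ± 5.41 for *Igf2* per kilobase of union exon length.

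*Igf1r* (ENSMUSG00000005533, chromosome 7, 67952827 to 68233668, plus strand), the signaling receptor, had 24.7, 13.3 and 22.5 CPM in infarcts 1, 2 and 3, against 31.8, 37.4 and 37.3 CPM in contralateral tissue. Its infarct values were all lower than its contralateral values, with infarct 2 the lowest. The log2 fold change was -0.82 (adjusted *p* = 0.0106 by edgeR, SE 0.23, 95% interval -1.33 to -0.30). The test without a fold threshold was passed, as it was by 30.8% of all genes in this direction, but the fitted 1.76-fold lower expression did not reach the 2-fold threshold. Without infarct 2, the log2 fold change was -0.57 (adjusted *p* = 0.0229, edgeR).

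*Igf2r* (ENSMUSG00000023830, chromosome 17, 12682406 to 12769664, minus strand) had 318, 227 and 199 CPM in infarcts 1, 2 and 3, against 48.3, 50.3 and 42.9 CPM in contralateral samples 1, 2 and 3. Infarct 1 was highest, and the regions were separated by a wide gap. The log2 fold change was 2.39 (adjusted *p* = 4.88e-06 by edgeR, SE 0.20). Per length, the ratio of *Igf2r* to *Igf1r* was 2.41 ± 0.331 in contralateral cortices and 23.4 ± 7.38 in infarcts (exact permutation *p* = 0.1, adjusted *p* = 0.12). *Airn*, the antisense transcript of the *Igf2r* locus, shares no exon bases with it and had 79 counts over the infarcts and 23 over the contralateral cortices.

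The insulin receptor gene *Insr*, a close relative of *Igf1r*, had 119, 115 and 116 CPM in infarcts 1, 2 and 3, with 127, 138 and 108 CPM in contralateral tissue. The regions overlapped. Its log2 fold change was -0.09, with a 95% interval from -0.41 to 0.22 (adjusted *p* = 0.571, edgeR). Per length, *Igf1r* stood at 0.205, 0.222 and 0.282 of *Insr* in contralateral cortices 1, 2 and 3 and at 0.170, 0.0949 and 0.159 in infarcts 1, 2 and 3 (exact permutation *p* = 0.1, adjusted *p* = 0.12). The 2 ranges did not overlap. In bulk tissue, fewer cells of a type and less RNA per cell cannot be told apart. The 10 neuronal marker genes were all called lower, as were 20.9% of all tested genes. These 10 summed to 689, 1004 and 1818 CPM in infarcts 1, 2 and 3, and to 9768 to 10648 CPM in contralateral cortices. The part of neuronal content in the *Igf1r* difference was not tested.

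*Igfbp5* (ENSMUSG00000026185, chromosome 1, 72857932 to 72874884, minus strand), whose product also binds extracellular matrix, had 6224, 11020 and 5600 CPM in infarcts 1, 2 and 3, compared with 288, 301 and 356 CPM in contralateral cortices 1, 2 and 3. Infarct 2 stood apart from the other 2 infarcts, yet all 3 lay far above the contralateral cortices. By CPM it was the most abundant gene of all in infarct 2, ranked 3 in infarct 3 and 5 in infarct 1, and took 0.611% to 1.20% of all gene counts. In contralateral cortices it ranked between 594 and 731. The mean rose from 315 ± 36.4 CPM to 7614 ± 2966 CPM, and the log2 fold change was 4.59 (adjusted *p* = 1.45e-06 by edgeR, SE 0.31), the largest of the 10 genes under this fit. That of *Igf1*, 4.42, lay within its 95% interval of 3.90 to 5.29. Without infarct 2 the log2 fold change of *Igfbp5* was 4.25.

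*Igfbp2* (ENSMUSG00000039323, chromosome 1, 72824503 to 72852474, plus strand) is the neighbor of *Igfbp5*, with the 3′ ends of the 2 genes 5.46 kb apart. It had 23.8, 12.1 and 18.4 CPM in infarcts, against 16.1, 13.0 and 16.5 CPM in contralateral tissue. The contralateral values fell inside the spread of the infarcts. The log2 fold change was 0.25 (95% interval -0.30 to 0.81, adjusted *p* = 0.387, edgeR), so a change of 2-fold in either direction lay outside the interval. With each library left out in turn, it ranged from 0.03 to 0.50.

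*Igfbp4* (ENSMUSG00000017493, chromosome 11, 99041244 to 99054392, plus strand), an inhibitory binding protein that is cut by the metalloprotease PAPP-A, had 1089, 729 and 724 CPM in infarcts 1, 2 and 3. In contralateral cortices 1, 2 and 3 it had 87.4, 98.7 and 116 CPM. The regions were well separated, with a log2 fold change of 3.07 (adjusted *p* = 2.12e-06 by edgeR, SE 0.22). Infarct 1 was highest for *Igfbp4* and not for *Igfbp5*. *Igfbp3* (ENSMUSG00000020427, chromosome 11, 7206086 to 7213923, minus strand), whose product is the main IGF carrier in blood, had 28.3, 33.6 and 35.6 CPM in infarcts, against 4.49, 5.08 and 3.41 CPM in contralateral tissue. Its log2 fold change was 2.90 (adjusted *p* = 2.05e-06 by edgeR, SE 0.21). Its neighbor *Igfbp1*, 3.54 kb away, had at most 1 count in any library and was not tested. *Igfals*, which encodes the third part of the circulating IGF complex with IGFBP3, had 4, 6 and 6 counts in infarcts and 0 in every contralateral cortex. Taking 3 counts per contralateral library, its infarct mean was 1.86-fold higher, and it was not tested either. This value allows for counting error on the contralateral side only, and not for that of the 4 to 6 infarct counts.

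*Igfbp6* (ENSMUSG00000023046, chromosome 15, 102144362 to 102149511, plus strand), which binds IGF2 in preference to IGF1, had 73.4, 74.97 and 62.9 CPM in infarcts 1, 2 and 3. Its contralateral values were 16.9, 20.0 and 26.2 CPM. Every infarct was above every contralateral cortex, and the log2 fold change was 1.75 (adjusted *p* = 3.24e-05 by edgeR, SE 0.19), the same to 2 decimals as that of *Igf2*. *Igfbp7* (ENSMUSG00000036256, chromosome 5, 77349240 to 77408041, minus strand), a vascular binding protein with low affinity for IGFs, had 26.0, 24.8 and 26.8 CPM in infarcts, against 2.30, 1.82 and 2.40 CPM in contralateral tissue. It varied least between infarcts, with a log2 fold change of 3.57 (adjusted *p* = 5.02e-07 by edgeR, SE 0.20) from only 26 to 44 contralateral counts. *Polr2b*, transcribed in the opposite direction, overlaps 7.03% of its exon bases, and whether the counting used strand is not given in the sources used here.

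Summed per length, the 6 binding protein transcripts reached 1392, 2105 and 1196 CPM per kilobase in infarcts 1, 2 and 3, against 94.9, 101 and 121 for contralateral samples 1, 2 and 3. The regions did not overlap (exact permutation *p* = 0.1, adjusted *p* = 0.12). Without *Igfbp5*, the sum was 297 ± 51.4 CPM per kilobase in infarcts and 53.1 ± 7.74 in contralateral cortices, 5.59 times as much. *Igfbp5* made up 50.4%, 49.9% and 49.0% of the sum in contralateral cortices 1, 2 and 3. In infarcts 1, 2 and 3 its share was 74.4%, 87.2% and 77.9%, so that every infarct exceeded every contralateral cortex. The share of *Igfbp6* went from 17.8 ± 1.71% in contralateral cortices to 4.22 ± 0.884% in infarcts, although its own transcript rose. The share of *Igfbp2* went from 7.84 ± 1.17% to 0.691 ± 0.331% and that of *Igfbp4* from 21.6 ± 0.685% to 13.1 ± 4.97%. All 4 of these shares separated the regions (exact permutation *p* = 0.1, adjusted *p* = 0.12), whereas those of *Igfbp3* and *Igfbp7* overlapped (exact permutation *p* = 0.2 and 0.5). Shares within a library do not depend on the scaling between libraries.

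**Figure D3:**
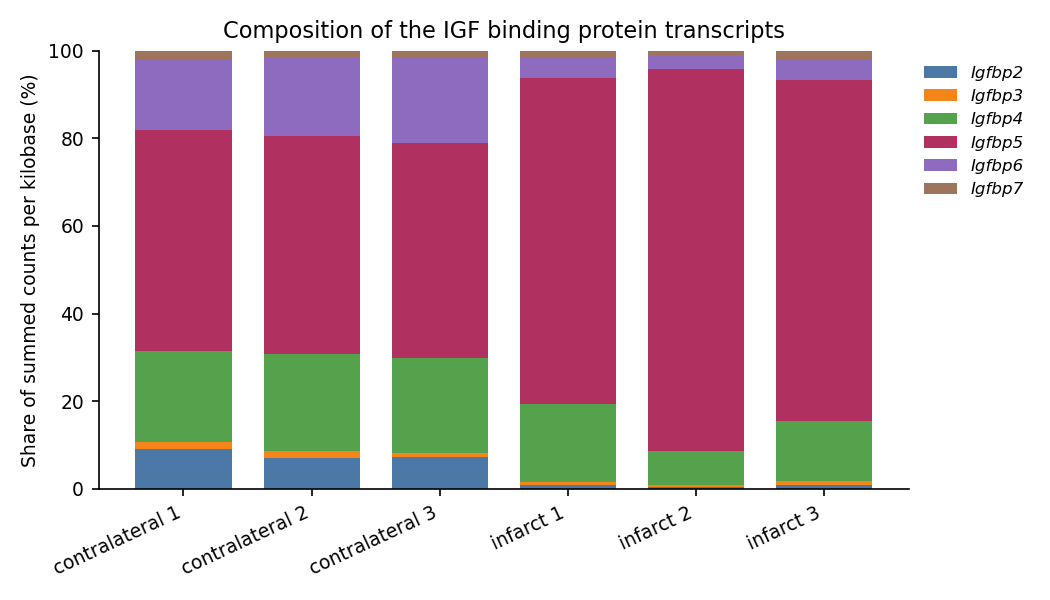
Share of each of the 6 binding protein genes in their summed counts per kilobase of union exon length, in percent, for each library. *Igfbp5* takes 49.0% to 50.4% of the bar in contralateral cortices and 74.4% to 87.2% in infarcts.

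In order of level per union exon length, the contralateral cortex ran *Igfbp5*, *Igfbp4*, *Igfbp6*, *Igf2*, *Igfbp2*, *Igf2r*, *Igf1*, *Igf1r*, *Igfbp7* and *Igfbp3*. There the libraries of *Igfbp4* and *Igfbp6*, of *Igfbp6* and *Igf2*, of *Igf1r* and *Igfbp7*, and of *Igfbp7* and *Igfbp3* overlapped, and the other neighbors in the order were separated. In infarcts the order ran *Igfbp5*, *Igfbp4*, *Igfbp6*, *Igf1*, *Igf2*, *Igf2r*, *Igfbp7*, *Igfbp3*, *Igfbp2* and *Igf1r*. Overlaps were found between *Igfbp6* and *Igf1*, between *Igf1* and *Igf2*, between *Igf2r* and *Igfbp7*, and between *Igfbp3* and *Igfbp2*. *Igf1r* was the lowest of the 10 in infarcts, at 1.20 ± 0.360 CPM per kilobase, below every library of every other gene.

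Relatives of the 10 genes were few in number at testable levels. Of 10 such genes, 5 passed the filter. Of these, *H19* and *Igf2bp2* were higher, *Igf2bp3* was lower, and *Insr* and *Igf2os* were not called. Over all tested genes, 25.7% were higher and 20.9% lower. *H19* and *Igf2bp2* passed the filter through the infarcts, as their contralateral counts were 6, 2 and 3 and 21, 8 and 3. *H19* is a noncoding RNA of the same imprinted cluster as *Igf2*, expressed from the maternal allele and sharing enhancers with it, and its locus lies 72.6 kb away. It had 442, 586 and 429 counts in infarcts 1, 2 and 3, against 6, 2 and 3 counts in contralateral tissue, and a log2 fold change of 7.16 (adjusted *p* = 1.88e-07 by edgeR, SE 0.32). Per length, *H19* stood at 0.277 ± 0.0478 of *Igf2* in infarcts and at 0.00608 ± 0.00156 in contralateral cortices (exact permutation *p* = 0.1, adjusted *p* = 0.12). The 2 genes of the cluster thus rose by unequal amounts. Among the mRNA-binding proteins named for *Igf2*, *Igf2bp2* rose from 0.632 ± 0.421 CPM to 5.19 ± 0.609 CPM and *Igf2bp3* fell from 6.01 ± 1.32 CPM to 1.73 ± 0.649 CPM. *Igf2bp1* had 0 counts in every infarct and at most 3 in a contralateral cortex.

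Proteases that cut binding proteins, together with their inhibitors, formed a list of 17 genes, of which 14 were tested. Of these, 12 were higher, 1 was lower and 1 was not called, where 25.7% of all tested genes were higher and 20.9% lower. The median log2 fold change was 4.04, beside 0.03 over all tested genes. *Mmp3* and *Pappa*, both called higher, passed the filter through the infarcts, as did *Pappa2*, which was not called. Contralateral counts were 0, 1 and 11 for *Mmp3* and 17, 21 and 7 for *Pappa*. When every library had to hold 10 counts or more, 11 genes of the list were tested, with 10 higher and 1 lower. The list holds *Mmp2* and *Mmp3*, which the paper names for these samples, so it is not independent of them. *Pappa*, which encodes the protease of IGFBP4, had 14.6, 16.2 and 11.1 CPM in infarcts and 0.888, 1.37 and 0.646 CPM in contralateral tissue. Its log2 fold change was 3.82, and it was named for its substrate, outside the rule for named genes. *Adam12*, which encodes a protease of IGFBP3 and IGFBP5, rose from 4.06 ± 0.375 CPM to 84.9 ± 10.3 CPM. For the lysosomal protease gene *Ctsd*, which depends on mannose 6-phosphate receptors for sorting, the mean was 342 ± 66.0 CPM in contralateral cortices and 6607 ± 184 CPM in infarcts. *Timp1*, an inhibitor of metalloproteases, had a log2 fold change of 4.90, and *Mmp2*, a gelatinase, one of 5.98. The gene that was lower was *Stc1*, which encodes stanniocalcin 1, an inhibitor of PAPP-A, at 3.42 ± 0.479 CPM in contralateral cortices and 1.14 ± 0.309 CPM in infarcts (adjusted *p* = 0.00280, edgeR). It was not called when tested against a 2-fold change with glmTreat. Of the genes not tested, *Adam28* had 0 counts in every library, *Plg* had 1 count in a single infarct, and *Stc2* had 4 to 18 counts per library.

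**Figure D4:**
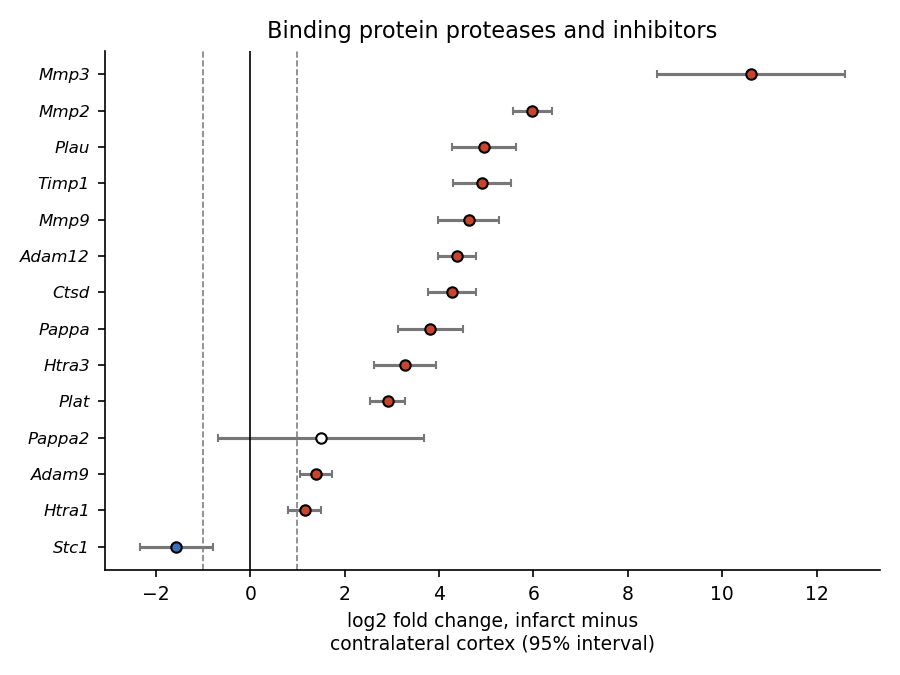
Log2 fold change with its 95% interval for the 14 tested genes of the protease and inhibitor list, infarct minus contralateral cortex. Red points are genes called higher, the blue point is the gene called lower (*Stc1*), the white point is the gene not called (*Pappa2*), and dashed lines mark a 2-fold change. *Mmp3*, *Pappa* and *Pappa2* passed the filter on low counts through the infarcts.

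Downstream of the receptors, 30 signaling genes were tested, of which 7 were higher, 6 were lower and 17 were not called. These shares are near those over all tested genes, of which 25.7% were higher and 20.9% lower. The median log2 fold change was -0.26 for the list and 0.03 for all tested genes. Those higher were the adaptors *Shc1*, *Gab1* and *Irs1*, the leukocyte PI3K subunit *Pik3cd*, the phosphatases *Inpp5d* and *Ptpn1*, which oppose the pathway, and the transcription factor *Foxo1*, which AKT restrains. *Shc1*, which links receptors to the MAPK pathway, had the largest of these changes, from 9.31 ± 1.33 CPM to 106 ± 23.2 CPM (log2 fold change 3.50, adjusted *p* = 8.07e-07, edgeR). Among those lower were *Pdpk1*, *Mtor*, *Gsk3b*, *Grb14* and *Irs4*. *Irs4* was low in both regions and passed the filter through the contralateral cortices. It had 28, 29 and 15 counts there and 0, 5 and 3 in infarcts. *Pdpk1*, which encodes the kinase that activates AKT, fell from 361 ± 27.7 CPM to 140 ± 11.3 CPM, with a log2 fold change of -1.37 (adjusted *p* = 2.83e-05, edgeR). With libraries scaled by their totals, which shifted the median over all tested genes by 0.20 on the log2 scale, 3 of the 6 were still called lower.

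Markers of the cell types known to express these genes also differed between the regions. For comparison with the counts below, 25.7% of all tested genes were called higher and 20.9% lower. The 12 fibroblast and leptomeninges markers, all called higher, summed to 7596 to 9528 CPM in infarcts and 220 to 278 CPM in contralateral cortices. Of 13 microglia and macrophage markers, 11 were higher, and the sum over all 13 was 6800 to 10576 CPM in infarcts and 322 to 431 CPM in contralateral cortices. *Lyz2* alone had 7853, 6830 and 4665 CPM in infarcts 1, 2 and 3. The 2 not called were *P2ry12* and *Cd163*, with log2 fold changes of -0.20 and 0.46. Of the 11, *Aif1* passed the filter through the infarcts, with 14, 14 and 8 contralateral counts. Of 10 pericyte and smooth muscle markers 7 were higher, with sums of 673 to 940 CPM against 307 to 396 CPM, and of 9 endothelial markers 4 were higher, with sums of 694 to 999 CPM against 441 to 483 CPM. No marker of these 4 lists was at 0 in all libraries of a region. Astrocyte markers summed to 5092 to 7596 CPM in infarcts and 13174 to 14171 CPM in contralateral cortices, with 2 genes higher and 1, the abundant transporter gene *Slc1a2*, lower. Oligodendrocyte markers summed to 4343 to 6979 CPM against 2181 to 2608 CPM, with 4 of 8 higher. Of 8 choroid plexus markers 5 were tested and 4 of these were higher. Of the 4, *Aqp1*, *Clic6* and *Folr1* had at most 10 counts in any contralateral cortex and passed the filter through the infarcts. *Prlr* also passed it through the infarcts, with 13, 28 and 11 contralateral counts. The sum over all 8 was 47.1 to 54.1 CPM in infarcts and 7.37 to 9.38 CPM in contralateral cortices. *Aqp1* alone had 34.1, 29.6 and 23.0 CPM in infarcts 1, 2 and 3. *Ttr*, the transcript that defines choroid plexus, had 0, 3 and 3 counts in infarcts, against 0 in each contralateral library, and *Otx2* had 1 count in all 6 libraries together. The part of these cell types in the differences of the IGF axis genes was not tested.

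For the ligands and receptors, the 3 genes with the most similar profile were sought as those with the smallest root mean square difference of log2 CPM over the 6 libraries, each gene centered on its mean. For *Igf1* they were *Adam12*, *Cpxm1* and *Pik3r5*, at 0.0485, 0.0970 and 0.101 log2 units. For *Igf2r* they were *Fibin*, *Lama2* and *Nfatc3*, at 0.0704, 0.0726 and 0.0812. For *Igf1r* they were *Klf12*, *Zfp94* and *Vegfb*, at 0.0570, 0.0686 and 0.0773. The profile of *Igf2* was less closely matched, with 0.115 for *Smpdl3b*, 0.116 for *Gm16576* and 0.131 for *Wnk4*. The measure rests on the difference between regions and on 3 libraries within each, and it describes these 6 libraries only.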

How the data were processed

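Libraries from 3 infarcts and 3 contralateral cortices were analyzed. Per the paper's methods and the submitters' processing notes, the authors demultiplexed reads with bcl2fastq 2.19, trimmed them with Trimmomatic 0.32, aligned them to GRCm38 with STAR 2.5.2b and deposited raw counts per gene from htseq-count, without normalization. The annotation and strand setting of the counting are not given in the sources used here. Counts on genes totaled 12146959 to 13427057 per infarct, against 11943570 to 19933962 for the contralateral side. The 5 entries that name no gene (26.6% to 34.3% of tallied reads) were left out. No replicate pair had a chi-square per degree of freedom under 13.9, so each library was used as its own sample. Positions, symbols and exon lengths came from GENCODE M21 (GRCm38), which held 45229 of 46078 identifiers.

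Tests were run with edgeR 4.0.16 in R 4.3.3. After filterByExpr, libraries were scaled with TMM and compared with robust quasi-likelihood fits with region as the only term. The biological coefficient of variation was 0.220. Standard errors are the log2 fold change divided by the square root of F, and 95% intervals use the fit's degrees of freedom. DESeq2 1.42.0, other scalings, filters and thresholds, a replicate block and leaving out each library were tried as alternatives. The edgeR procedure was first tested on simulated data with known changes. At an adjusted *p* under 0.05 it recovered 62 of 100 genes changed 2-fold and 98 of 100 changed 4-fold. It also called 8 unchanged genes. The simulation changed a far smaller share of genes than the 46.6% called here, so it did not test the scaling under such wide change. Single values per library were tested by exact permutation in Python 3.11.15 with SciPy 1.17.1. Benjamini-Hochberg adjustment ran over all tested genes. The text covers the 10 IGF axis genes, their nearest relatives, the called genes of the pathway lists with the smallest adjusted *p* and genes of closest profile. The genes and lists were chosen with earlier results of these data known. The values of 1 gene of the signaling list are not reported here.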

Additional observations from a re-analysis of the deposited data

How the results depend on the processing

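The 8 calls among the 10 genes held under every alternative run, with 8 genes called higher each time, and no log2 fold change of the 10 genes changed sign. *Igf1r* ranged from -0.97 to -0.57 and was called lower, as the only 1 of the 10, when the fold change threshold was dropped (-0.82). With each library left out in turn, 8 genes were called higher and 0 lower.

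Among the relatives of the IGF genes, 4 were called higher by DESeq2 and with no filter on low counts, and 0 when every library had to hold 10 counts or more, since only 2 of the 10 were then tested. Leaving out a library gave 2 higher and 1 lower each time. In the protease list, 0 genes were called lower by glmTreat against a 2-fold change, and leaving out a library gave 12 to 13 higher and 1 lower. In the signaling list, 3 genes were called lower with library totals and 3 by glmTreat, and without the fold change threshold 11 were higher and 12 lower. Leaving out a library gave 7 to 8 higher and 4 to 7 lower.

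Without length scaling, the share of *Igfbp5* in the binding protein sum was 87.5% in infarcts and 68.8% in contralateral cortices, and the ratio of *Igf1* to *Igf2* was 2.08 and 0.339. With the longest transcript as length, the contralateral *Igfbp5* share was 46.5%. Leaving out a library gave *Igfbp5* shares of 76.2% to 82.5% in infarcts and 49.4% to 50.1% in contralateral cortices, and *Igf1* to *Igf2* ratios of 1.11 to 1.32 and 0.165 to 0.223.

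The libraries showed no sign of pairing by replicate number. Deviations of same-numbered libraries from their region's means correlated at -0.19, 0.101 and 0.0011. With the replicate number as a block, 8 of the 10 genes were again called higher and 0 lower. Counts of 26 to 44 limit the precision of *Igfbp7* in contralateral cortices.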

Other observations

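A few genes of low level varied widely between libraries. *Pappa2*, a protease of IGFBP3 and IGFBP5, showed counts of 23, 37 and 85 for infarcts 1, 2 and 3, against 54, 1 and 6 for contralateral tissue, and a log2 fold change of 1.502 (adjusted *p* = 0.192, edgeR). *Insrr*, an orphan relative of the insulin receptor, showed 25, 4 and 9 counts for infarcts, against 5, 10 and 4 for contralateral tissue. *Igfbpl1* showed 4, 5 and 22 counts for infarcts, against 0, 1 and 0 for contralateral tissue. Its regions did not overlap, with infarcts higher, as in 37.6% of all tested genes, but these counts were low. The latter 2 genes did not pass the filter on low counts.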
